A study of Mus musculus with 6 samples.

Results

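Neurofilament and axonal cytoskeleton genes were compared between the retinas of mouse pups with oxygen-induced retinopathy (OIR) and those of pups raised in room air. The 9 genes were Nefh, Nefm, Nefl, Ina, Prph, Gap43, Stmn2, Mapt and Tubb3, taken by symbol from the 22173 genes listed, and all 9 were found. RNA of whole wild-type retina at postnatal day 17 was sequenced in 6 libraries, all from C57BL/6J pups. The 3 Control libraries came from pups kept in room air throughout, and the 3 OIR libraries from pups that breathed 75% oxygen from day 7 to day 12 and room air afterwards. Whether a library is 1 animal, a pool or a repeat of another library's animal is not in the labels, so the p-values speak only of the spread among these 6 libraries, which may be technical. Values are RPKM, the reads of a gene per kilobase of its length, scaled to the total reads of the library.

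Neurofilaments are the intermediate filaments of axons, built in the central nervous system from a light, a medium and a heavy chain together with alpha-internexin, and they set the calibre of large axons. Microtubules, made of tubulin and bound by proteins such as tau, carry the transport along the axon. In the retina the long axons are those of the ganglion cells, which form the optic nerve. Horizontal and some amacrine cells also hold neurofilament. In the OIR model oxygen stops and reverses vessel growth, and the return to room air leaves the poorly perfused retina hypoxic, after which abnormal vessels grow.

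Of the 9 axonal genes, 4 fell in OIR and 1 rose. Nefl, Nefh, Ina and Gap43 fell and Prph rose, while Nefm, Stmn2, Tubb3 and Mapt did not pass the test. All 9 genes reached at least 1 RPKM in every library and were tested, with limma on log2(RPKM + 1) over 12112 genes at an adjusted p threshold of 0.05. The 4 genes that fell are set beside 7.22% of all tested genes called lower, the 1 gene that rose beside 11.6% called higher, and the 5 together beside 18.8% called in either direction. The 9 genes, and the gene and marker lists used below, were chosen with earlier results of these data known. The median log2 fold change of the 9 genes was -0.40, against 0.03 over all tested genes. The groups did not overlap for 3 of the 9 genes (Nefl, Nefh and Prph), beside 38.7% of all tested genes. Nefl and Nefh lay below Control, as did 15.0% of all tested genes, and Prph lay above, as did 23.6%. In whole tissue, fewer cells of a type and less RNA per cell cannot be told apart.

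**Figure D1:**
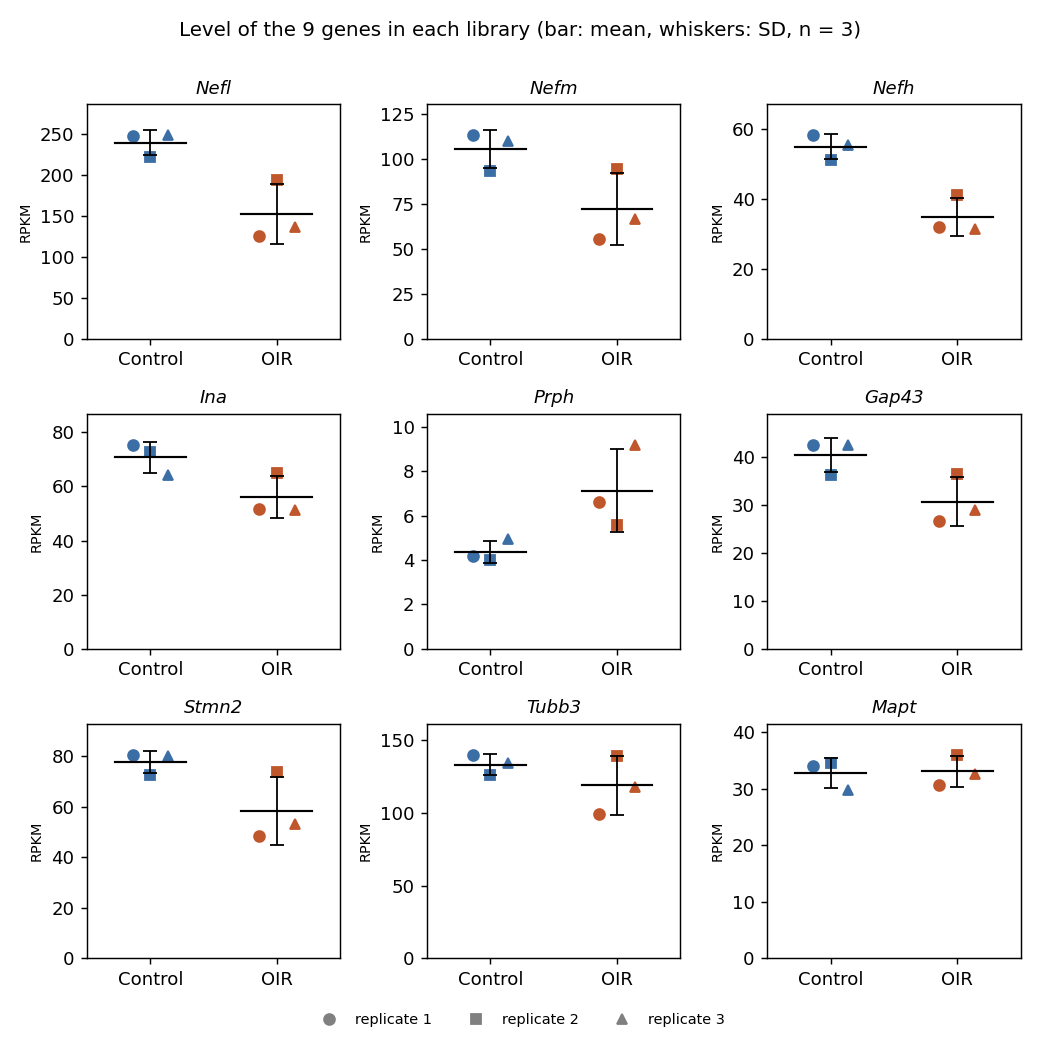
Level of each of the 9 genes in RPKM (vertical axes, each from 0) in the 3 Control and 3 OIR libraries, with a symbol for each replicate number, the mean as a bar and the SD as whiskers. Nefl and Nefh lie wholly below Control in OIR and Prph wholly above, while Mapt overlaps throughout.

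Several libraries stood apart in other genes. Recovered depth ran from 35615501 to 38025623 reads. Lens markers summed to 52694 RPKM in Control 3 and 4500 RPKM in OIR 2, against 120.3 to 486.3 RPKM in the other 4 libraries. As a share of reads they took 4.55% in Control 3, 0.387% in OIR 2 and 0.0103% to 0.0412% in the other 4. Myelin genes of oligodendrocytes, which ensheathe the optic nerve behind the eye, were higher in Control 1 and OIR 2. The myelin gene Mobp, picked with its values in view, was at 0.278 and 0.282 RPKM there and at 0 to 0.00631 RPKM in the other 4. Rod markers were abundant in every library, with Nrl at 539.3 to 675.9 RPKM. For lens RNA, fits of the 9 genes with a lens covariate (the log2 sum of the lens markers) and without both lens-rich libraries stand with the other settings after the gene groups, while the part of myelin RNA was not tested.

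Nefl encodes the light chain, the core on which the other chains assemble, and it had the highest level of the 9 genes. It was at 247.2, 222.0 and 248.5 RPKM in Control 1, 2 and 3, and at 125.4, 193.4 and 136.0 RPKM in OIR 1, 2 and 3. All 3 OIR libraries were below all 3 Control libraries, and OIR 2 was nearest to them. The mean fell from 239.2 ± 14.9 to 151.6 ± 36.6 RPKM (SD, n = 3 each), a log2 fold change of -0.68 with a standard error of 0.155 and a limma adjusted p of 0.0254. The call ended without Control 1, Control 2, Control 3, OIR 1 or OIR 3, at limma adjusted p of 0.0899, 0.0628, 0.0733, 0.0551 and 0.0793, and without OIR 2 it was 8.67e-06. The call also ended with the replicate number as a block, at a limma adjusted p of 0.0527. Between 15666 and 31085 reads per library lay behind these values.

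Nefh encodes the heavy chain, whose long tail carries many phosphorylation sites and projects between filaments. Its levels were 58.4, 51.3 and 55.4 RPKM in Control 1, 2 and 3 and 32.1, 41.2 and 31.4 RPKM in OIR 1, 2 and 3. The groups did not overlap, and OIR 2 was again the highest OIR library. On the log2 scale the fold change was -0.65 (standard error 0.101, limma adjusted p 0.00334), a ratio of the group means of 0.634. Nefh was the only one of the 9 genes whose call held under all 16 alternatives, with log2 fold changes from -0.77 to -0.58 and limma adjusted p up to 0.0226.

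Nefm encodes the medium chain. It was at 113.1, 93.3 and 109.9 RPKM in Control 1, 2 and 3, and at 55.5, 94.0 and 66.8 RPKM in OIR 1, 2 and 3. OIR 2 lay just above Control 2, so the groups overlapped, while OIR 1 and OIR 3 were below every Control library. The log2 fold change was -0.57, with a 95% interval from -1.07 to -0.07 and a limma adjusted p of 0.107. Without OIR 2 it was -0.78, at a limma adjusted p of 0.000182, and without any other single library it was -0.66 to -0.40, at 0.155 to 0.287. In the GENCODE M21 annotation Nefm and Nefl lie on opposite strands and share 1108 exon bases. Reads there could not be told apart without strand, and whether the counting used strand is not given in the sources used here. The length recovered for Nefm was 3230 bases, against 5782 over all its M21 exons. Whether the Nefm exons counted held the shared bases is therefore not known.

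Ina, the gene of alpha-internexin, which joins the filament triplet in central neurons, fell less. Control 1, 2 and 3 held 75.4, 72.7 and 64.3 RPKM, and OIR 1, 2 and 3 held 51.8, 64.9 and 51.4 RPKM. OIR 2 was slightly above Control 3, and the other OIR libraries were below all of Control. Ina fell by 0.34 on the log2 scale (standard error 0.0979, limma adjusted p 0.0385). Without Control 1, Control 2, OIR 1 or OIR 3 the limma adjusted p was 0.138, 0.110, 0.150 and 0.129, and with the lens covariate it was 0.0711. With no filter on low values it was 0.0905, and with limma without its trend and robust options 0.0674. Ina shares 456 exon bases with Nt5c2 on the other strand in GENCODE M21.

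Prph encodes peripherin, an intermediate filament protein found mainly in peripheral neurons, and it moved the other way from a low level. It was at 4.16, 3.996 and 4.93 RPKM in Control 1, 2 and 3, and at 6.60, 5.59 and 9.19 RPKM in OIR 1, 2 and 3. Every OIR library was above every Control library, with OIR 2 again nearest to Control and OIR 3 farthest from it. The mean rose from 4.36 ± 0.500 to 7.13 ± 1.86 RPKM (SD, n = 3 each), a log2 fold change of 0.58 with a standard error of 0.152 and a limma adjusted p of 0.0317. The call ended without Control 1, Control 2 or OIR 1, at limma adjusted p of 0.117, 0.107 and 0.101, and with the lens covariate, at 0.0640. The call also ended with no filter on low values, at a limma adjusted p of 0.0659. Between 334 and 788 reads per library were behind Prph, the fewest of the 9 genes. Of 9 markers of Schwann cells and peripheral nerve, 2 were tested and neither passed. The summed level of these 9 markers was 27.5 to 33.8 RPKM in Control and 29.5 to 35.3 RPKM in OIR.

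Ina and Prph, both neuronal intermediate filament genes, moved in opposite directions, and whether their promoters bear on this was not tested. Of the intermediate filament genes described, only Ina and Prph were matched in the RefSeq promoter table (build GRCm38.p6). The 250 bases before their starts are shown, on the plus strand and 5′ to 3′. They lie at chr19:47014431-47014680 for Ina and chr15:99054924-99055173 for Prph. Capitals mark matches to the motifs searched.
Ina: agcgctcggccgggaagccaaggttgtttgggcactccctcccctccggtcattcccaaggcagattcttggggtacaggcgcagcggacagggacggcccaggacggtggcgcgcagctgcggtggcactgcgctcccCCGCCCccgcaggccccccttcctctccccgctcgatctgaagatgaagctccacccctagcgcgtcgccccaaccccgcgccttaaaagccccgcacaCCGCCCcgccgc
Prph: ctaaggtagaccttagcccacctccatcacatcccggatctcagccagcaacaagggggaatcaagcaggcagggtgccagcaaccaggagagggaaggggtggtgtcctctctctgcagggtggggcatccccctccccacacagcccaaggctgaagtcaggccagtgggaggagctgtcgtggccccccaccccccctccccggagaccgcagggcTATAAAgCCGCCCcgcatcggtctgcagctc

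The motifs searched on both strands were TATAAA (the TATA box), GGGCGG (bound by SP1), TGACGTCA (bound by CREB and ATF proteins) and ACGTG (the core bound by hypoxia-inducible factors). None of these 4 overlapped another in the 2 windows. Prph held 1 TATAAA, at positions -31 to -26 counted back from the start, and 1 GGGCGG on the other strand at -24 to -19. Ina held 2 GGGCGG on the other strand and no match to TATAAA. Neither window held TGACGTCA or ACGTG. Of 32851 windows of this length in the table, 12.4% held TATAAA, 32.7% GGGCGG, 1.55% TGACGTCA and 16.6% ACGTG. The table matched 3 of the 9 genes, with Tubb3 as the other.

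Gap43 encodes a phosphoprotein of growth cones that takes part in axon growth and regrowth. Control 1, 2 and 3 were at 42.5, 36.2 and 42.5 RPKM, and OIR 1, 2 and 3 at 26.7, 36.4 and 28.9 RPKM. OIR 2 was level with Control 2, and OIR 1 and OIR 3 were below all Control libraries. The gene fell by 0.40 on the log2 scale, with a standard error of 0.113 and a limma adjusted p of 0.0397. The call ended without Control 1, Control 3, OIR 1 or OIR 3, at limma adjusted p of 0.133, 0.115, 0.133 and 0.121, and with the lens covariate, at 0.0621. The call also ended with no filter on low values and with the replicate number as a block, at limma adjusted p of 0.0855 and 0.101. Limma without its trend and robust options gave an adjusted p of 0.0601.

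Stmn2 encodes a stathmin that binds tubulin and acts on microtubule growth in growth cones. It was at 80.7, 72.8 and 80.1 RPKM in Control 1, 2 and 3, and at 48.5, 73.7 and 53.1 RPKM in OIR 1, 2 and 3. OIR 2 fell inside the Control range and the other OIR libraries well below it. The log2 fold change of Stmn2 was -0.43, with a 95% interval from -0.77 to -0.09 and a limma adjusted p of 0.0823. Without OIR 2 it was -0.61, at a limma adjusted p of 0.000125, and without any other single library it was -0.48 to -0.31, at 0.142 to 0.218.

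Tubb3, the neuronal class of beta-tubulin, differed less. Control 1, 2 and 3 held 140.2, 125.9 and 134.1 RPKM, and OIR 1, 2 and 3 held 99.4, 139.6 and 118.0 RPKM. OIR 2 was again within the Control range, and the log2 fold change of Tubb3 was -0.18, with a 95% interval from -0.42 to 0.07 and a limma adjusted p of 0.293. Without OIR 2 it was -0.30, at 0.0261, without OIR 1 it was -0.054, at 0.781, and without any other single library it was -0.22 to -0.14, at 0.302 to 0.534. Mapt, the gene of tau, which stabilises axonal microtubules, was at 34.0, 34.6 and 29.8 RPKM in Control 1, 2 and 3 and at 30.6, 36.0 and 32.6 RPKM in OIR 1, 2 and 3. The groups of Mapt overlapped throughout. Its log2 fold change was 0.01 and turned slightly negative with other scalings, and the 95% interval ran from -0.17 to 0.19, at a limma adjusted p of 0.934.

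**Figure D2:**
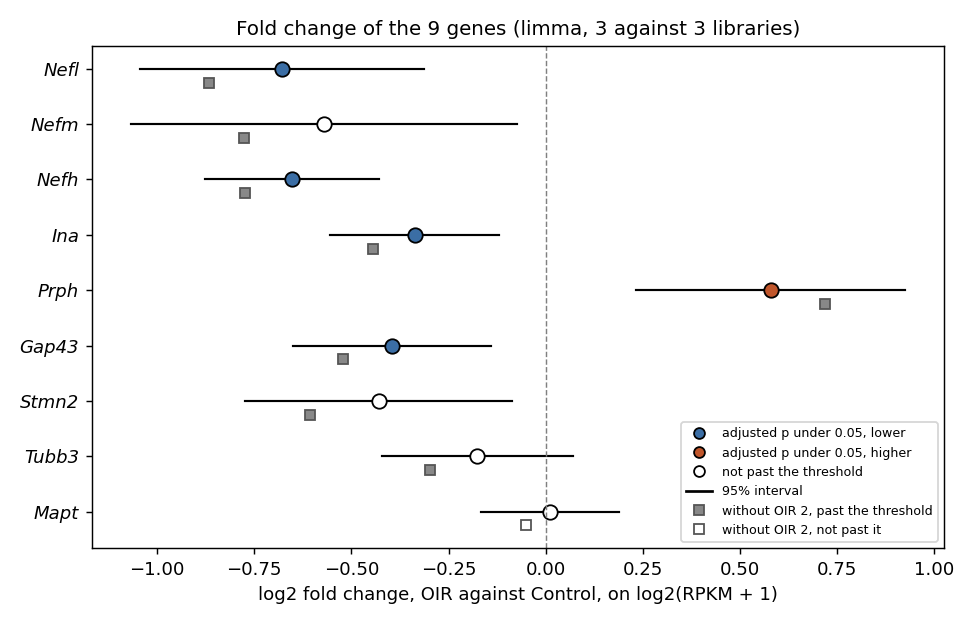
Log2 fold change of OIR against Control on the log2(RPKM + 1) scale (horizontal axis) for the 9 genes, as circles with 95% intervals, filled where the adjusted p was under 0.05, and as squares from the fit without OIR 2. Without OIR 2, the squares of 8 genes are past the threshold and that of Mapt is not.

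The OIR libraries differed from each other more than the Control libraries did. The coefficient of variation was 5.39% for Tubb3 to 11.5% for Prph in Control, and 8.25% for Mapt to 27.5% for Nefm in OIR, and it was larger in OIR for each of the 9 genes. OIR 1 held 52.4% of the Control mean of Nefl, OIR 3 held 56.9% and OIR 2 held 80.8%. For Stmn2 these shares were 62.3%, 68.1% and 94.6%. OIR 2 was the highest OIR library for 8 of the 9 genes and the lowest for Prph. This order was also seen among the genes called over the whole series. OIR 2 was the highest OIR library in 86.9% of the 875 genes called lower. It was the lowest in 81.0% of the 1407 genes called higher. Both sets were chosen on these same values. Over all 12112 tested genes, OIR 2 was the highest OIR library in 34.6% and the lowest in 41.1%. Gfap, the filament gene of reactive glia, was at 61.3, 28.0 and 74.1 RPKM in OIR 1, 2 and 3, against 5.65 to 8.60 RPKM in Control. The part of a weaker response, or of lens or optic nerve tissue, in the values of OIR 2 was not tested.

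**Figure D3:**
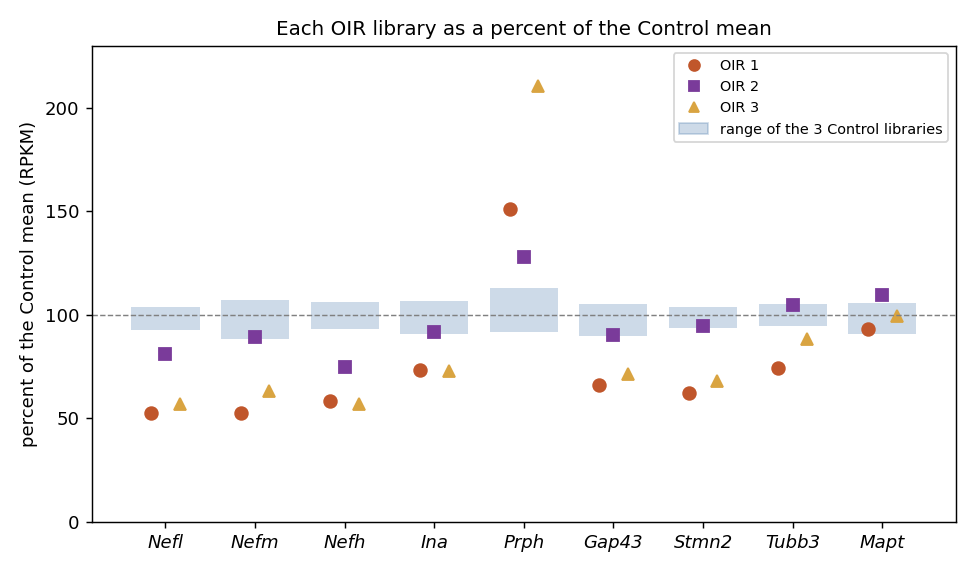
RPKM of each gene in OIR 1, OIR 2 and OIR 3 as a percent of the Control mean (vertical axis, from 0), with the range of the 3 Control libraries shaded. OIR 2 lies nearest to 100% of the 3 OIR libraries for Nefl, Nefm, Nefh, Ina, Prph, Gap43, Stmn2 and Tubb3.

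RPKM is per length, so levels can be ranked between genes, as far as the gene lengths used hold. The length recovered from the values equalled a GENCODE M21 transcript length for Nefh and Nefl only. In Control the order of mean levels was Nefl, Tubb3, Nefm, Stmn2, Ina, Nefh, Gap43, Mapt and Prph, and only the neighbours Stmn2 and Ina had overlapping ranges. In OIR the order was the same except that Mapt stood above Gap43. There the ranges overlapped between Nefl and Tubb3, Nefm and Stmn2, Stmn2 and Ina, Nefh and Mapt, and Mapt and Gap43. Averaged over the 6 libraries, Nefl was at a higher level than 98.2% of the tested genes and Prph than 34.4%.

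Of 4 ratios between filament chains, that of Ina to Nefl was the one whose groups did not overlap. With 3 libraries against 3 the exact permutation test cannot go below 0.1, so no ratio could pass a threshold of 0.05. Nefh to Nefl was 0.230 ± 0.00667 in Control and 0.233 ± 0.0216 in OIR as a ratio of RPKM (SD, n = 3 each), a mean log2 difference of 0.02. Nefm to Nefl was 0.440 ± 0.0188 and 0.473 ± 0.0267. Ina to Nefl was 0.305, 0.327 and 0.259 in Control 1, 2 and 3, and 0.413, 0.336 and 0.378 in OIR 1, 2 and 3. The Ina to Nefl ratios of the groups did not overlap, with a mean log2 difference of 0.34 and a two-sided exact permutation p of 0.1, that smallest value. Adjusted over the 4 ratios tested it was 0.4, and the exact permutation p of the other 3 ratios, with Nefh to Nefm among them, was 0.2 to 1. Of the summed RPKM of Nefl, Nefm, Nefh, Ina and Prph, Prph made up 0.835% to 1.02% in Control and 1.40% to 3.12% in OIR.

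Of 12 tested ganglion cell markers, 5 were lower and none higher, beside 7.22% and 11.6% of all tested genes, with a median log2 fold change of -0.39, close to the -0.40 of the axonal genes. Thy1, a surface protein gene of ganglion cells, fell from 175.9 ± 10.8 to 130.6 ± 22.9 RPKM, and Ebf3, a transcription factor gene, from 7.28 ± 0.923 to 5.16 ± 0.620 RPKM. The log2 fold change was negative for 11 of the 12 markers, and 7 were not called. Among these, Rbpms and Jam2 differed little, with log2 fold changes of -0.08 and 0.03 at limma adjusted p of 0.576 and 0.814. The call of Thy1 was lost when any library but OIR 2 was left out (limma adjusted p 0.0638 to 0.0983), and that of Ebf3 without Control 1, OIR 1 or OIR 3 (0.0787, 0.0775 and 0.0661). The count lower rested on which libraries were used, and the share of all tested genes lower moved too. The count was 10 of 12 without OIR 2, beside 10.7% of all tested genes. Without Control 2 or Control 3 it was 1, beside 3.48% and 8.83%. Without Control 1, OIR 1 or OIR 3 it was 0, beside 2.19%, 1.75% and 2.87%. With no filter on low values it was 1, beside 2.95%, and with the lens covariate 2, beside 6.23%. The summed level of the 12 markers was 657.7 to 708.8 RPKM in Control and 466.6, 642.0 and 508.1 RPKM in OIR 1, 2 and 3. How the neurofilament triplet stood against single markers depended on the marker. The summed RPKM of Nefl, Nefm and Nefh was 1.48 to 1.60 times that of Sncg in Control and 1.23 to 1.29 times in OIR, with OIR 2 at 1.29. Against Rbpms, an RNA-binding protein gene of nearly all ganglion cells, it was 39.9 to 42.3 times in Control and 25.7 to 31.6 times in OIR. Against the transcription factor gene Pou4f2 it was 98.0 to 106.3 times in Control and 90.8 to 112.7 times in OIR, which overlap. Of the remaining markers, the groups also overlapped for Pou4f3, Slc17a6, Nrn1 and Ebf3. All OIR ratios lay below Control for Rbpms2, Pou4f1, Thy1, Jam2 and Tppp3. Sncg, Rbpms and Pou4f2 were picked with their values in view, and the ratios were not tested.

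**Figure D4:**
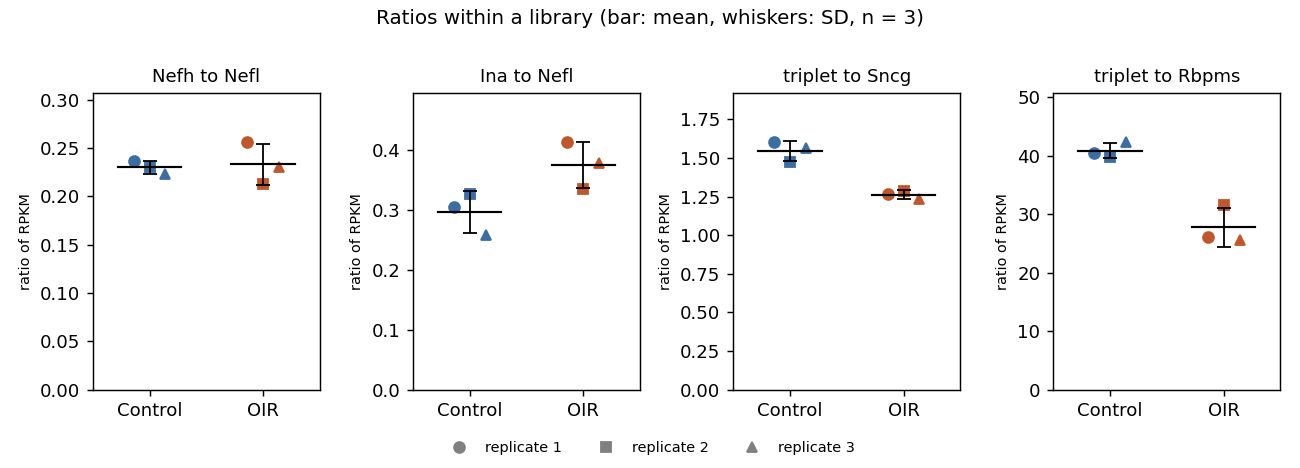
Ratios of RPKM within each library (vertical axes, each from 0) for Nefh to Nefl, Ina to Nefl, and the sum of Nefl, Nefm and Nefh to Sncg and to Rbpms, with the mean as a bar and the SD as whiskers. The Nefh to Nefl ratios of the groups overlap, and the triplet to Sncg ratio is below Control in all 3 OIR libraries. Against some ganglion cell markers that are not shown, Pou4f2 among them, the triplet ratios of the groups overlap.

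Other cell types were followed by their markers, with the same shares of all tested genes beside them (7.22% lower, 11.6% higher). These shares also moved when single libraries were left out. Lower were 2.19%, 3.48% and 8.83% without Control 1, 2 and 3, and 1.75%, 10.7% and 2.87% without OIR 1, 2 and 3. Higher, in the same order, were 5.43%, 7.77% and 9.97%, and 4.24%, 14.5% and 5.75%. Of 12 amacrine cell markers, 10 were lower and none higher, with a median log2 fold change of -0.43, and their summed level was 728.5 to 791.1 RPKM in Control and 485.0, 667.8 and 521.0 RPKM in OIR 1, 2 and 3. The amacrine count was 2 without Control 1, 3 without OIR 1, 5 without OIR 3, 6 without Control 2, 10 without Control 3 and 11 without OIR 2. Of 4 tested horizontal cell markers 1 was lower, Calb1, a calcium-binding protein gene that fell from 43.9 ± 3.54 to 27.7 ± 3.83 RPKM and whose call held with any 1 library left out. The median log2 fold change of these 4 markers was -0.03, with 2 negative and 2 positive. None of the 4 was higher with all libraries, and 1 was higher without Control 3. Bipolar cells had 5 of 10 markers lower and none higher, and 3 to 8 lower when single libraries were left out, with 3 without Control 1, Control 2, OIR 1 or OIR 3 and 8 without Control 3. Among the glia that border ganglion cell axons, 5 of 8 Müller glia markers were lower and 2 higher, with a median log2 fold change of -0.32, and 2 of 5 tested astrocyte markers were higher and none lower. The Müller glia count lower was 2 without OIR 1 and 3 without Control 1, and 4 or 5 without any other library, while the count higher was 1 without any single library. The astrocyte count was 3 without OIR 2 and 1 without any other library. The summed level of the Müller glia markers was 2134 to 2337 RPKM in Control and 1796 to 1985 RPKM in OIR. Of 8 endothelial and pericyte markers 7 were higher and none lower, 6 without OIR 1, and their summed level was 67.4 to 71.5 RPKM in Control and 117.5 to 135.6 RPKM in OIR. Of 8 rod markers 2 were higher and none lower, and of 8 cone markers 1 was higher and 1 lower. The rod count was 0 without Control 2 or OIR 1, and 1 without Control 1, OIR 2 or OIR 3. For cones the count lower was 0 without Control 1, Control 2, OIR 1 or OIR 3, and the count higher was 3 without OIR 2. All 7 tested microglia and macrophage markers were higher, and the summed level of the 8 listed was 26.8 to 30.2 RPKM in Control and 105.1, 79.0 and 106.7 RPKM in OIR 1, 2 and 3. Of 3 tested oligodendrocyte and myelin markers, Cnp was higher and rose from 11.1 ± 1.61 to 16.8 ± 0.416 RPKM. The summed level of the 9 myelin markers was 12.6 to 23.2 RPKM in Control and 19.4 to 28.0 RPKM in OIR, highest in Control 1 and OIR 2 of their groups. The part of these cells in the axonal results was not tested.

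Counts for the other genes of the axonal skeleton are also set beside 7.22% of all tested genes lower and 11.6% higher. Of 12 other tubulin subunit genes 3 were higher and none lower, with a median log2 fold change of 0.20. The tubulin count higher was 0 without Control 1 or OIR 3, 1 without Control 2 or OIR 1, and 5 without Control 3. With median-of-ratios or upper-quartile scaling 1 was higher and 1 lower, and without OIR 2 the counts were 3 and 2. Tubb5 rose from 228.3 ± 1.41 to 282.4 ± 17.3 RPKM and Tubb2b from 25.0 ± 4.55 to 37.1 ± 4.87 RPKM. Both tubulins are also made outside neurons. The call of Tubb5 ended without Control 1, OIR 1 or OIR 3, at limma adjusted p of 0.0573, 0.0501 and 0.0802, and that of Tubb2b without Control 1, Control 2, OIR 2 or OIR 3, at 0.107, 0.0595, 0.0784 and 0.0683.

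Of 17 other microtubule-binding and stathmin-family genes, 5 were lower and 1 higher, with a median log2 fold change of -0.15. The count lower was 0 without Control 1, 1 without OIR 1 or OIR 3, 2 without Control 2, 3 without Control 3 and 8 without OIR 2, and 2 with no filter. The count higher was 0 without Control 2, OIR 1 or OIR 3 and with no filter. Stmn1 and Stmn3 belong with Stmn2 to the stathmins. Stmn1 fell from 170.8 ± 10.6 to 124.5 ± 18.5 RPKM, and Stmn3 from 166.1 ± 4.20 to 119.4 ± 23.8 RPKM. The call of Stmn1 ended without Control 1 or OIR 1, at limma adjusted p of 0.0581 and 0.0591. That of Stmn3 was lost when any library but OIR 2 was left out, at 0.0652 to 0.0847.

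Of 15 motors and adaptors of axonal transport, 3 were lower and 2 higher, with a median log2 fold change of -0.18. Dync1i1, a dynein intermediate chain gene, fell from 25.9 ± 2.43 to 16.1 ± 1.66 RPKM, and the kinesin gene Kif5c from 49.2 ± 3.70 to 36.2 ± 4.30 RPKM. Dctn1, which encodes the large dynactin subunit that works with dynein, rose from 78.7 ± 4.89 to 99.7 ± 2.54 RPKM. The calls of Dync1i1 and Dctn1 held with any of the 6 libraries left out, and that of Kif5c ended without OIR 1, at a limma adjusted p of 0.0520. The counts of the 15 lower and higher were 1 and 1 without OIR 1, 2 and 2 without Control 1, 5 and 2 without Control 3, and 8 and 3 without OIR 2. Either rescaling gave 6 lower and 2 higher.

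Of 13 genes of the axon initial segment, nodes and spectrin skeleton, 2 were lower and none higher, with a median log2 fold change of -0.04. The 2 called of 13 are no more than the 18.8% called in either direction over all tested genes, and none was called without Control 1 or OIR 1. Without Control 3 the counts were 1 lower and 1 higher, without OIR 2 they were 2 and 1, and without OIR 3 1 was lower. The 2 genes were Scn2a, a sodium channel gene, from 6.05 ± 0.544 to 3.999 ± 0.699 RPKM, and the adhesion gene Nrcam, from 12.8 ± 0.929 to 10.6 ± 0.360 RPKM. The call of Scn2a ended without Control 1 or OIR 1, at limma adjusted p of 0.0516 and 0.0542, and that of Nrcam without Control 1, Control 3, OIR 1 or OIR 3, at 0.134, 0.0660, 0.133 and 0.127. Of 10 tested growth cone and axon injury genes, Atf3 and Tubb2b were higher and Basp1 was lower. Ecel1, Sprr1a and Sox11, also listed, were too low to be tested. Their means in Control and OIR were 0.0515 and 0.798 RPKM for Ecel1, 0.0118 and 0.237 RPKM for Sprr1a, and 0.355 and 0.418 RPKM for Sox11. None of the 10 was called without Control 1, Control 2 or OIR 3, 1 was higher and none lower without Control 3 or OIR 1, and 2 were higher and 3 lower without OIR 2. Atf3, a transcription factor gene induced by axon injury and other stress, was at 1.33, 1.69 and 1.18 RPKM in Control 1, 2 and 3 and at 6.35, 3.16 and 8.43 RPKM in OIR 1, 2 and 3. All OIR values of Atf3 were above all Control values, with OIR 2 the lowest, and its log2 fold change was 1.47 at a limma adjusted p of 0.0375. Its call ended without Control 1, Control 2, Control 3, OIR 1 or OIR 3, at 0.133, 0.102, 0.0552, 0.154 and 0.0513. Basp1, a growth cone protein gene akin to Gap43, fell from 138.4 ± 1.50 to 111.3 ± 13.7 RPKM, and its call was lost when any library but OIR 2 was left out, at 0.0587 to 0.120.

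Of 9 filament linkers and other intermediate filament genes, 4 were higher and none lower, with a median log2 fold change of 0.35. The count was 3 without Control 1 or OIR 1 and 4 to 6 without any other library, with 6 without Control 3. Nes, the gene of nestin, a filament of progenitors, reactive glia and vessel cells, rose from 1.40 ± 0.0977 to 5.49 ± 1.62 RPKM. Plec, which encodes the linker plectin, rose from 3.02 ± 0.137 to 4.28 ± 0.228 RPKM, and Lmna, a nuclear lamina gene, from 3.93 ± 0.250 to 6.60 ± 1.28 RPKM. The calls of Nes, Plec and Lmna held with any 1 library left out.

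**Figure D5:**
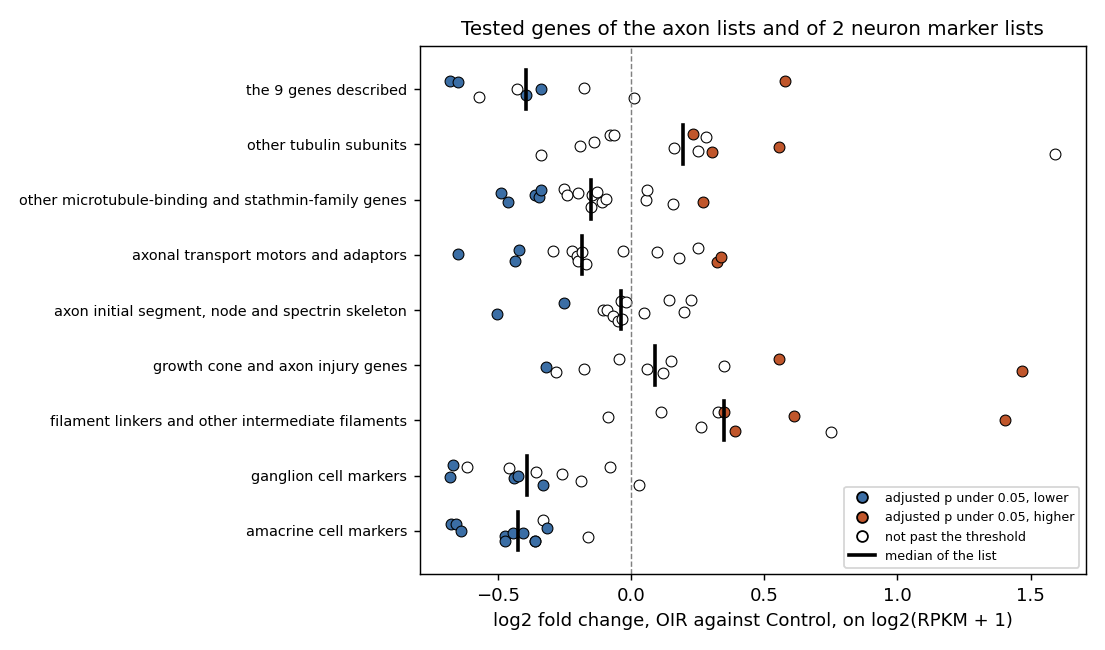
Log2 fold change of OIR against Control on the log2(RPKM + 1) scale (horizontal axis) for each tested gene of the 9 genes described, 6 lists of related axonal genes, and ganglion and amacrine cell markers, with list medians as black bars and filled circles where the adjusted p was under 0.05. The medians run from -0.43 for amacrine markers to 0.35 for filament linkers and other intermediate filaments.

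The pattern of the 9 genes over the 6 libraries was summarised as the mean of their z-scores. Its Pearson correlation with its own members was 0.98 for Nefm and Stmn2, 0.46 for Mapt and -0.76 for Prph. Outside the 9, among 8296 genes at 5 RPKM or more, it was closest to Mpi, B3gat3, Dmtn, Dynll2 and Rgs4, at 0.997 to 0.992. These are descriptions over 6 libraries that share the group difference and the position of OIR 2. None of these 5 genes passed the limma test, with adjusted p from 0.0694 to 0.224.

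The count of axonal genes called moved with the libraries and settings used, and so did the share of all tested genes. Without OIR 2, 7 of the 9 genes were lower and 1 higher, beside 10.7% and 14.5% of all tested genes. Without both lens-rich libraries, Control 3 and OIR 2, the counts were again 7 and 1, beside 16.0% and 17.3%. The log2 fold change was then -0.84 for Nefl, -0.75 for Nefm, -0.77 for Nefh, -0.51 for Ina, 0.79 for Prph, -0.48 for Gap43, -0.59 for Stmn2, -0.29 for Tubb3 and -0.11 for Mapt. Without Control 1, OIR 1 or OIR 3, 1 gene, Nefh, was lower, beside 2.19%, 1.75% and 2.87% of all tested genes, and Prph was higher only without OIR 3, where the share called higher was 5.75%, against 5.43% and 4.24% without Control 1 or OIR 1.

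Without Control 2 or Control 3, 2 genes were lower, beside 3.48% and 8.83%, and Prph was higher without Control 3, where 9.97% of all tested genes were, but not without Control 2, where 7.77% were. With the lens covariate 2 genes were lower and none higher, beside 6.23% and 10.5%. These were Nefl, with a log2 fold change of -0.63 and a limma adjusted p of 0.0333, and Nefh, with -0.63 and 0.0113, while Nefm, Stmn2, Tubb3 and Mapt were at adjusted p of 0.128, 0.103, 0.394 and 0.993. With no filter on low values 2 were again lower and none higher, beside 2.95% and 6.73%. With the replicate number as a block 2 were lower and 1 higher, beside 6.68% and 10.1%, and with limma without its trend and robust options again 2 and 1, beside 6.08% and 10.4%.

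The counts stayed at 4 lower and 1 higher in 5 settings. The shares of all tested genes lower and higher were 10.8% and 10.6% with median-of-ratios scaling, 11.4% and 10% with upper-quartile scaling, and 7.17% and 11.6% with a pseudocount of 0.1. They were 6.32% and 11.2% with a filter at 0.3 RPKM, and 8.86% and 12.1% with limma-voom on the recovered reads. Nefh was called in each of these 16 settings.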

How the data were processed

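RNA sequencing of whole retina was analysed from 1 deposited file per library, 3 Control and 3 OIR, with groups and replicate numbers from the sample titles. The authors deposited 1 RPKM value per gene symbol. No header states the unit, which was taken from the values: low genes step in whole multiples of 1 read. Per the submitters' processing notes, alignment tools were TopHat2 2.0.12 and Bowtie2 2.0.6. Counter, build and annotation were not given in the sources used here. Because the deposited extract protocol speaks of a different species, the kind of library and its strand are uncertain.

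Depth was recovered from these steps with 88 GENCODE M21 transcript lengths, and 12111 of 12112 tested genes came out as whole reads within 0.02 of a read. Counting error weighs most on genes with few reads.

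Genes with at least 1 RPKM in at least 3 libraries were tested with limma 3.58.1 (R 4.3.3; trend and robust options) on log2(RPKM + 1), group as the only term, two-sided, Benjamini-Hochberg adjustment over all tested genes, threshold 0.05. This scale understates the change of low genes. The fit was also run on simulated libraries of equal depth with no outlying library. That run cannot speak to calls that moved with single libraries here. The 9 genes and all lists were chosen with earlier results of these data known. Named genes were the 9, up to 3 genes with the smallest adjusted p per axonal list and up to 2 per cell marker list, and the 5 genes closest in pattern. Some genes taken by this rule are not described.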

Additional observations from a re-analysis of the deposited data

How the results depend on the processing

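Of the 9 genes, 4 were called lower and 1 higher. The count lower was 2 with no filter, the replicate block, the lens covariate, or limma without trend and robust options, 7 without both lens-rich libraries (Control 3 and OIR 2), and 1 to 7 when single libraries were left out. The count higher was 0 with no filter or the lens covariate and 0 to 1 when single libraries were left out. Over all genes, 1407 were higher and 875 lower. The count lower was 1379 with upper-quartile scaling, 529 with no filter, 1943 without both lens-rich libraries, and 212 to 1293 when single libraries were left out, and the count higher was then 513 to 1754. Median-of-ratios scaling called 1283 higher and 1312 lower, and moved the median of all genes by -0.03. Limma-voom on the recovered reads, added after seeing the data, called 4 of the 9 genes lower and 1 higher. Mapt turned to -0.0260 and -0.0336 with the 2 scalings (median-of-ratios, upper-quartile), -0.115 without both lens-rich libraries, -0.00129 with the lens covariate, and ran from -0.0536 (without Control 3) to 0.0641 (without OIR 1) when single libraries were left out. The Nefh to Nefl difference then ran from -0.0540 to 0.0789.

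The deviations of same-numbered libraries from their group means correlated at 0.22, -0.44 and -0.41. With 3 libraries in each group, such correlations cannot decide whether libraries of the same number pair. With the replicate block, Nefl and Gap43 were at limma adjusted p of 0.0527 and 0.101, and 1222 genes were higher and 809 lower. Where no cause is named, the cause was not tested.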
